A study of Arabidopsis thaliana with 4 samples.

Results

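The loci described here are those whose identifiers start with ATCG, the prefix of genes carried by the chloroplast genome of Arabidopsis thaliana. They were taken by that prefix alone, and there were 133 of them among the 34133 loci of the deposited files. RNA came from the first leaf of 14-day-old seedlings kept on Murashige and Skoog medium containing sucrose, in a study of biomass heterosis, where a hybrid outgrows its parents. Of 4 libraries, 2 were from the hybrid Col-0xAk-1 and 2 from its inbred parent Ak-1. The name of the inbred parent differs between labels (Ak-1 as strain and title, Aa-0 as genotype, Ak-0 in the design text), and Ak-1 is used here. The labels do not say whether the libraries of a group came from separate plants, so a p-value weighs a difference against variation among these libraries alone, and that variation may be technical. Col-0 was not analysed here.

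The chloroplast genome is a small circular genome of bacterial origin, present in many copies per cell. It encodes core proteins of both photosystems, of the cytochrome b6f complex, of the ATP synthase and of the NDH complex, which returns electrons from ferredoxin to the plastoquinone pool. It also encodes the large subunit of Rubisco, part of the plastid ribosome, a bacterial-type RNA polymerase, and the ribosomal and transfer RNAs. Most of these complexes also need subunits made from nuclear genes. In Arabidopsis plastids are inherited almost wholly from the mother, and the labels do not state which parent was the mother of the hybrid. A difference in plastid type, a difference in plastid sequence against the Col-0 reference and a difference in transcript level cannot be told apart from these files.

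Names could be given to few loci. None of the 133 identifiers (0) is a locus tag or synonym in the RefSeq table used here, of assembly TAIR10.1, and the files hold identifiers only. Notes on related nuclear genes in that annotation name a product for 6 of them, and 1 further locus, ATCG00420, appears only as the parent of a nuclear pseudogene. The 6 products are ribosomal proteins L2 (ATCG01310), S11 (ATCG00750) and L20 (ATCG00660), the plastid-encoded Clp protease subunit (ATCG00670), a CemA-like proton extrusion protein (ATCG00530) and a protein listed as photosystem II reaction center protein G (ATCG00430). All other chloroplast loci are given by identifier, and no sorting of the whole set into photosystem, ATP synthase, ribosome, polymerase and NDH genes was made.

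The summed level of chloroplast-encoded loci overlapped between the groups. Their FPKM (fragments scaled to transcript length and to the number of mapped fragments) summed to 26566 and 28464 in the hybrid libraries and to 26323 and 29603 in the Ak-1 libraries. The groups overlapped, and the mean sum of the hybrid was 0.984 times that of Ak-1 (27515 ± 1342 in the hybrid and 27963 ± 2319 in Ak-1, SD, n = 2 each; exact two-sided permutation test on log2 of the sum, p = 1, where 2 against 2 libraries cannot give less than 0.333). The loci took 3.58% and 3.98% of all FPKM in the hybrid and 3.67% and 4.06% in Ak-1. In these bulk samples fewer cells of a type and less RNA per cell cannot be told apart.

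The library kit named in the labels' protocols selects polyadenylated RNA, and most chloroplast transcripts carry no stable poly(A) tail, so FPKM here are levels of what passed that selection. Mitochondrial transcripts and ribosomal RNA also lack a stable tail. The summed mitochondria-encoded loci, and the only nuclear ribosomal RNA locus looked at, had lower values in the hybrid. The 146 mitochondria-encoded loci summed to 581 and 774 FPKM in hybrid libraries and to 1177 and 1084 FPKM in Ak-1 libraries, and of 36 tested ones 13 were called lower and 0 higher, where 2.51% of all tested loci were called lower and 1.62% higher. The nuclear ribosomal RNA locus AT3G41768 had 1670 and 4446 FPKM in the hybrid, against 10547 and 7145 FPKM in Ak-1 (limma adjusted p = 0.155). The part of poly(A) selection in the differences below was not tested. Of 6 leaf markers, such as carbonic anhydrase CA1 and Rubisco activase RCA, all were tested and 0 were called by limma. At an unadjusted p under 0.05, RCA and LHCB2.1 (2 of 6) were higher in the hybrid, against 7.61% of all tested loci. CA1 did not reach that p. Log2 differences of the 6 ran from −0.23 at LHCB1.1 to 0.86 at LHCB2.1. The 6 summed to 38022 and 31821 FPKM in the hybrid and to 26989 and 29670 in Ak-1, and their part in the results was not tested. The 5 root markers summed to at most 0.13 FPKM and the 5 apex and flower markers to at most 0.33 FPKM in any library, with CLV3, a stem cell marker, listed at 0 in all 4.

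Of the 133 loci, 53 were listed at 0 in all 4 libraries, 6 had a value but a mean under 1 FPKM, and 74 were tested. A value listed at 0 may be a failed estimate, so those 53 are not called unexpressed. Levels of the 74 spanned more than 3 orders of magnitude, with means over all libraries of at least 1000 FPKM for 8 loci, 100 to 1000 for 19, 10 to 100 for 32 and 1 to 10 for 15. The 6 highest, ATCG00950, ATCG00480, ATCG01180, ATCG00920, ATCG01210 and ATCG00470, held 63.9% and 66.8% of the chloroplast sum in the hybrid and 65.7% and 71.7% in Ak-1. Without these 6 the remaining loci summed to 9581 and 9436 FPKM in hybrid libraries and to 9030 and 8366 FPKM in Ak-1 libraries, so the hybrid libraries were then both above the Ak-1 libraries (1.09 times on the means; exact two-sided permutation test, p = 0.333, the smallest that this design allows).

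Of the tested chloroplast loci 6 passed the test between hybrid and Ak-1 leaves. With limma on log2(FPKM + 1), run over all 15905 loci averaging 1 FPKM or more, 4 of the 74 chloroplast loci were called lower and 2 higher at an adjusted p under 0.05, and 68 were not called. Of all loci tested, 2.51% were called lower and 1.62% higher, and the chloroplast shares were 5.41% and 2.70%. The median log2 difference, hybrid minus Ak-1, was −0.07 over the 74 loci and −0.06 over all tested loci. The middle part of the set, between the quartiles, ran from −0.33 to 0.14 for chloroplast loci and from −0.27 to 0.15 for all loci. The libraries of the groups did not overlap for 14 chloroplast loci that were higher in the hybrid and for 21 that were lower, against 20.5% and 32.6% of all tested loci, and these counts are 18.9% and 28.4% of the chloroplast loci. At an unadjusted p under 0.05, 8 chloroplast loci were higher (10.8%) and 8 lower (10.8%), against 7.61% and 12.6% of all tested loci. The differences between these shares were not tested.

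**Figure D1:**
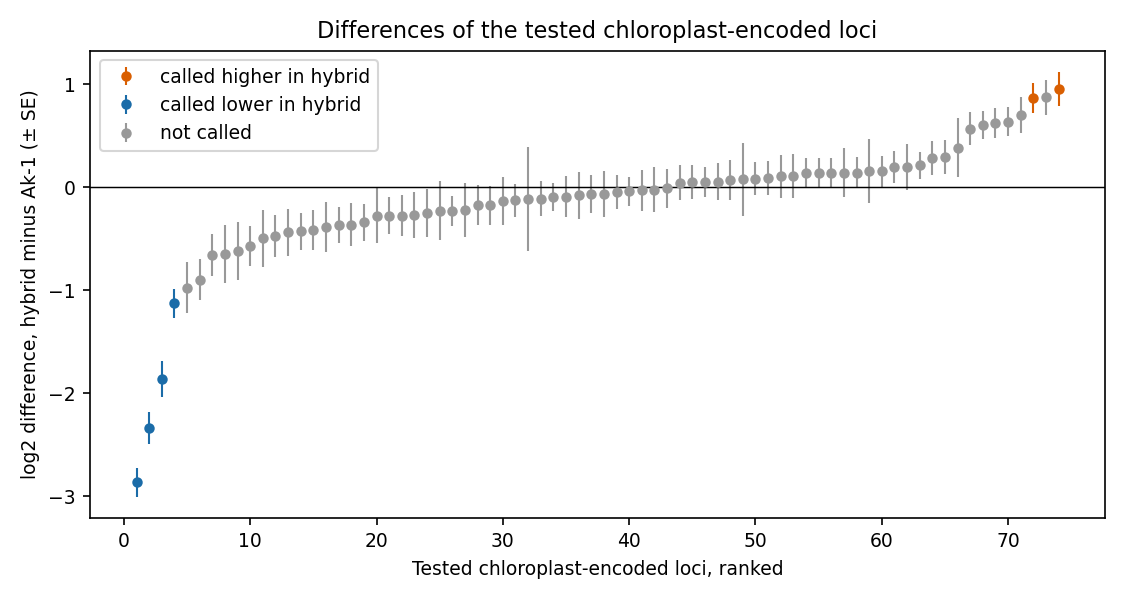
Log2 difference, hybrid minus Ak-1, with its SE for each of the 74 tested chloroplast-encoded loci, ranked from lowest to highest. The 4 loci called lower stand at the left from −2.87 to −1.13, and the 2 called higher stand near the right end at 0.86 and 0.95. ATCG00070, which was not called, lies between these 2 at 0.87, and 56 of the 74 lie within 0.5 of 0.

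The largest difference was at ATCG00380, which fell. It had 28.0 and 27.0 FPKM in the hybrid libraries, against 217 and 197 FPKM in the Ak-1 libraries. Both hybrid libraries were far below both Ak-1 libraries, and the 2 hybrid values nearly coincided. On the means the hybrid level was 0.133 times that of Ak-1 (limma adjusted p = 0.00275, log2 difference −2.87 with an SE of 0.14). This call was made in all 10 alternative settings that kept the 4 libraries.

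ATCG00360, a locus of lower level, also fell. It had 4.18 and 5.22 FPKM in the hybrid, against 26.3 and 29.2 FPKM in Ak-1, and the groups were clearly apart (0.169 times, log2 difference −2.34, SE 0.16, limma adjusted p = 0.00612). ATCG00820 had 84.4 and 77.2 FPKM in the hybrid, against 333 and 264 FPKM in Ak-1. The hybrid mean of ATCG00820 was 0.271 times that of Ak-1 (log2 difference −1.86, SE 0.17, limma adjusted p = 0.0106), and here the Ak-1 libraries varied more than the hybrid libraries. ATCG01000 had 15.9 and 17.2 FPKM in the hybrid, against 39.7 and 35.3 FPKM in Ak-1, a smaller fall (0.442 times, log2 difference −1.13, SE 0.14, limma adjusted p = 0.0214). The calls on ATCG00360, ATCG00820 and ATCG01000 were lost with no filter on low values, at adjusted p of 0.0823, 0.134 and 0.121. None of the 4 falls was called once either Ak-1 library was left out, a fit in which only the hybrid libraries give the spread. Nearly all calls in the whole file were lost in those fits, so the loss is not particular to these loci. For ATCG00380 the log2 difference was then −2.79 and −2.94.

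The 2 rises were in loci of high and nearly equal level. ATCG00270 had 1253 and 1458 FPKM in the hybrid, against 726 and 670 FPKM in Ak-1 (1.94 times, log2 difference 0.95, SE 0.16, limma adjusted p = 0.0466). ATCG00280 had 1323 and 1394 FPKM in the hybrid, against 754 and 738 FPKM in Ak-1 (1.82 times, log2 difference 0.86, SE 0.15, limma adjusted p = 0.0455). In every library the values of these loci were within 9.76% of each other, taken as a share of their mean. Both calls lay close to the threshold in the main fit. Of 10 alternative settings that kept the 4 libraries, ATCG00270 was called in 4 and ATCG00280 in 3. Both calls were lost, for example, with a pseudocount of 0.1 (limma adjusted p = 0.0513 and 0.0503) and with no filter on low values (0.306 and 0.294). They were also lost without hybrid replicate 2, at log2 differences of 0.84 and 0.83. Neither rise was called once either Ak-1 library was left out, where nearly all calls in the whole file were lost. The log2 differences of both loci stayed at 0.61 or above in every setting run.

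**Figure D2:**
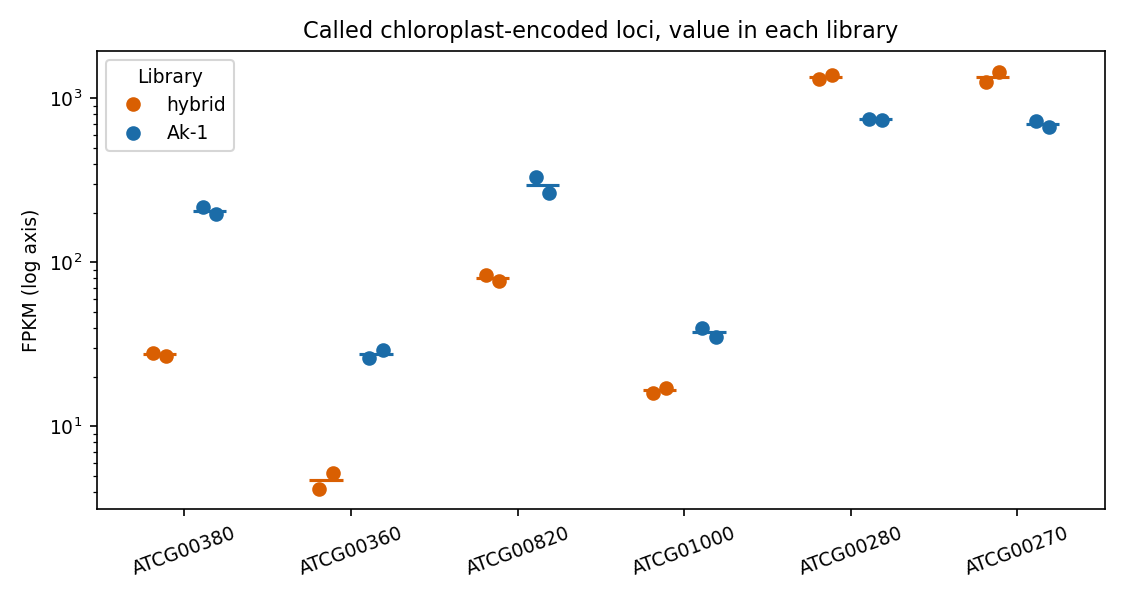
FPKM on a log axis of the 6 called chloroplast-encoded loci in each library, hybrid points left of Ak-1 points, with a bar at each group mean. ATCG00380 shows the widest gap, 27.0 to 28.0 FPKM in the hybrid against 197 to 217 in Ak-1, and the libraries of the groups do not overlap at any of the 6.

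Several loci had higher values in the hybrid without being called. ATCG00480, the second highest on the mean, had 4399 and 4860 FPKM in the hybrid, against 3102 and 3144 FPKM in Ak-1 (log2 difference 0.57, limma adjusted p = 0.142). ATCG00470 had 2627 and 2619 FPKM in the hybrid, against 1466 and 1774 FPKM in Ak-1 (0.70, adjusted p = 0.108). Both pairs of hybrid libraries were above both Ak-1 libraries. ATCG00540 had 40.8 and 38.8 FPKM in the hybrid, against 27.0 and 23.8 FPKM in Ak-1 (0.63, adjusted p = 0.0883). ATCG00070, of much lower level, had 3.43 and 2.81 FPKM in the hybrid, against 1.32 and 1.17 FPKM in Ak-1 (0.87, adjusted p = 0.0661), the smallest adjusted p among loci that were not called.

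On the other side, 4 of the 6 highest loci had lower values in the hybrid, and they form pairs of nearly equal level. ATCG00920 had 1528 and 2359 FPKM in the hybrid, against 2488 and 3420 FPKM in Ak-1, and ATCG01210 had 1498 and 2306 FPKM in the hybrid, against 2503 and 3411 FPKM in Ak-1. ATCG00950 had 3557 and 3509 FPKM in the hybrid, against 3869 and 4746 FPKM in Ak-1, and ATCG01180 had 3377 and 3375 FPKM in the hybrid, against 3866 and 4741 FPKM in Ak-1. The groups did not overlap at these 4 loci, yet at ATCG00920 the hybrid libraries differed by 1.54-fold and the Ak-1 libraries by 1.37-fold, and none of the 4 was called (limma adjusted p from 0.283 to 0.457). ATCG00650 had the lowest log2 difference among loci that were not called, −0.98, with 8.18 and 13.3 FPKM in the hybrid against 23.3 and 19.98 FPKM in Ak-1 (adjusted p = 0.114).

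**Figure D3:**
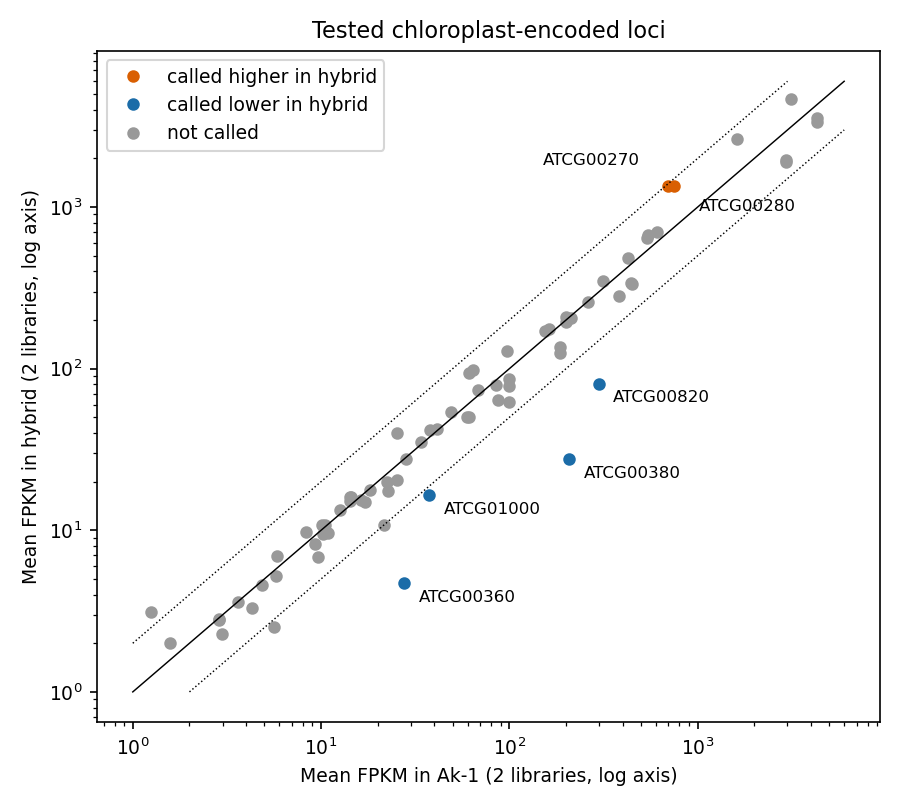
Mean FPKM of the 74 tested chloroplast-encoded loci in the hybrid (vertical) against Ak-1 (horizontal), 2 libraries each, both axes on a log scale; the solid line marks equal levels and the dotted lines a difference of 2-fold. Most loci follow the solid line over the whole range of levels, while ATCG00380, ATCG00360, ATCG00820 and ATCG01000 lie below the lower dotted line, together with ATCG01040 and, just past it, ATCG00650, which were not called. ATCG00270 and ATCG00280 lie just inside the upper line, and ATCG00070, which was not called, lies above it.

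The 3 loci annotated as ribosomal proteins were not called. Ribosomal protein L2, which sits at the peptidyl transferase centre of the large subunit, had 688 and 648 FPKM at ATCG01310 in the hybrid, against 599 and 495 FPKM in Ak-1 (log2 difference 0.29, SE 0.17, limma adjusted p = 0.404). The RefSeq annotation lists rpl2 at 2 places of the chloroplast genome, since an inverted repeat holds some genes in duplicate. Another locus, ATCG00830, had 671 and 625 FPKM in the hybrid against 586 and 484 FPKM in Ak-1, within 3.59% of ATCG01310 in every library. The handling of reads that match identical copies was not given in the sources used here, so values of such copies are uncertain.

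Ribosomal protein S11, a protein of the small subunit, had 205 and 147 FPKM at ATCG00750 in the hybrid, against 172 and 152 FPKM in Ak-1, and the groups overlapped (log2 difference 0.10, SE 0.21, adjusted p = 0.830 in limma). Ribosomal protein L20 was much lower in level, with 8.88 and 4.73 FPKM at ATCG00660 in the hybrid, against 9.36 and 9.87 FPKM in Ak-1. The groups did not overlap, but the hybrid libraries of L20 differed from each other by more than hybrid replicate 1 did from the Ak-1 libraries (log2 difference −0.50, SE 0.28, limma adjusted p = 0.394). Without hybrid replicate 1 the log2 difference of L20 was −0.89 (adjusted p = 0.0484), and without hybrid replicate 2 it was −0.10 (adjusted p = 0.716); each of these fits has a single hybrid library, assumed to vary like the Ak-1 libraries.

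The other annotated products were not called either. The Clp protease subunit, a catalytic part of the main soluble protease of the chloroplast, had 54.3 and 46.7 FPKM at ATCG00670 in the hybrid, against 60.0 and 58.5 FPKM in Ak-1 (log2 difference −0.23, SE 0.15, limma adjusted p = 0.456). The CemA-like protein, of the chloroplast envelope, had 16.6 and 15.5 FPKM at ATCG00530 in the hybrid, against 15.3 and 13.7 FPKM in Ak-1 (0.14, SE 0.14, adjusted p = 0.640). ATCG00430, listed as photosystem II reaction center protein G, is matched in the annotation by the 20 kDa subunit of mitochondrial NADH dehydrogenase, and the protein once called G of photosystem II is now known as a subunit of the chloroplast NDH complex. It had 732 and 661 FPKM in the hybrid, against 578 and 641 FPKM in Ak-1 (0.19, SE 0.16, adjusted p = 0.562). ATCG00420 had 366 and 331 FPKM in the hybrid, against 299 and 333 FPKM in Ak-1 (0.14, SE 0.15, adjusted p = 0.664), and its nuclear pseudogene AT4G13285 was listed at 0 in all 4 libraries.

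Some loci of the set had nearly equal levels, and how often this happens among other loci was not measured. Among the 74 tested loci, 27 pairs had values within 20% of their mean in every library, and 3 pairs were within 5%: ATCG00830 with ATCG01310, ATCG00860 with ATCG01280, and ATCG00920 with ATCG01210. ATCG00860 had 2.38 and 3.22 FPKM in the hybrid and 3.24 and 2.52 FPKM in Ak-1, and ATCG01280 had 2.48 and 3.16 FPKM in the hybrid and 3.23 and 2.48 FPKM in Ak-1. These pairs were found by their values and are given as a description, with no statement on which of them are copies.

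Libraries of 1 group differed by 1.5-fold or less at most chloroplast loci, with exceptions. Pearson's r of log2(FPKM + 1) over the 74 loci, which share libraries and are not independent, was 0.990 between the hybrid libraries, 0.996 between the Ak-1 libraries and 0.971 to 0.975 between groups. The wide range of levels among loci keeps r high in every pair of libraries, so r says little on the spread at single loci. At 12 of the 74 loci the hybrid libraries differed by more than 1.5-fold, and at 4 the Ak-1 libraries did. The same counts over all tested loci were not made. ATCG00020 had the largest SE of the 74, with 145 and 370 FPKM in the hybrid and 191 and 329 FPKM in Ak-1. Its spread within each group exceeded the difference between the group means (log2 difference −0.11, SE 0.50, limma adjusted p = 0.926).

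Nuclear genes that transcribe, process or complete the chloroplast gene products showed no called difference. In 9 lists with 81 genes, all 81 were tested, and limma called 0, where 1.62% of all tested loci were called higher and 2.51% lower. At an unadjusted p under 0.05, 7 (8.64%) were higher in the hybrid and 0 lower, against 7.61% and 12.6% of all tested loci. Their median log2 difference was 0.09, with a range from −0.44 to 0.57, against −0.06 over all tested loci. Sigma factors steer the plastid-encoded polymerase to its promoters. Of 6, SIG5, which responds to light and stress, had the smallest adjusted p, with 147 and 214 FPKM in the hybrid against 114 and 124 FPKM in Ak-1 (log2 difference 0.57, limma adjusted p = 0.235).

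The phage-type polymerase gene SCA3, whose product transcribes plastid genes from other promoters, had 2.79 and 4.85 FPKM in the hybrid, against 5.88 and 2.62 FPKM in Ak-1. The groups overlapped, as they did for its relative AT5G15700, with 0.59 and 1.31 FPKM in the hybrid against 1.52 and 0.74 FPKM in Ak-1 (limma adjusted p = 0.927 and 0.856). The 12 proteins associated with the plastid-encoded polymerase had a median log2 difference of −0.12 and 0 calls; PTAC3, among them, had 13.1 and 17.7 FPKM in the hybrid, against 11.7 and 9.30 FPKM in Ak-1 (adjusted p = 0.251). Among 13 factors of plastid RNA processing and stability, with a median of 0.07 and 0 calls, CSP41B, an RNA-binding protein of the chloroplast, had 959 and 992 FPKM in the hybrid against 717 and 717 FPKM in Ak-1 (log2 difference 0.44, limma adjusted p = 0.182).

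Nuclear partners of the same complexes had small differences. The 11 nuclear NDH subunits had a median log2 difference of 0.28, 0 calls and 4 members with an unadjusted p under 0.05, NdhL, NdhM, PnsL1 and PnsB2, all with higher values in the hybrid (7.61% of all tested loci were higher at that p). PnsB2, a subunit of the part particular to plants, had 240 and 278 FPKM in the hybrid against 184 and 186 FPKM in Ak-1 (0.48, limma adjusted p = 0.172). The 9 nuclear photosystem II subunits had a median of 0.20, the 12 of photosystem I 0.08, the 5 of cytochrome b6f and ATP synthase 0.12, and the 11 nuclear proteins of the plastid ribosome −0.12, each with 0 calls and no member at an unadjusted p under 0.05. PSBR of photosystem II had 17497 and 12835 FPKM in the hybrid against 9143 and 11118 FPKM in Ak-1 (adjusted p = 0.256), and PSAL of photosystem I had 3307 and 2230 FPKM in the hybrid against 1980 and 2370 FPKM in Ak-1 (0.528). The ATP synthase gene PDE334 had 1588 and 1500 FPKM in the hybrid against 1283 and 1404 FPKM in Ak-1 (0.535). The plastid ribosomal S5 gene AT2G33800 had 242 and 271 FPKM in the hybrid against 318 and 288 FPKM in Ak-1 (0.457).

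**Figure D4:**
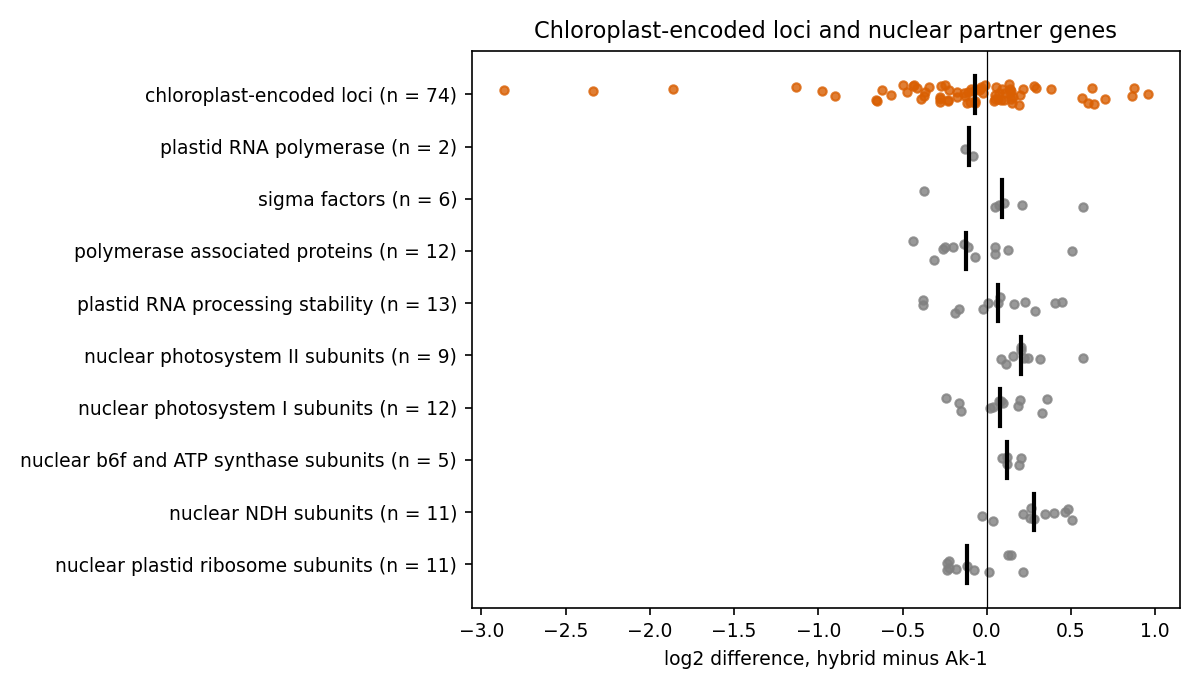
Log2 difference, hybrid minus Ak-1, of the 74 tested chloroplast-encoded loci (top row) and of nuclear genes in 9 partner lists, 1 point per gene, with a vertical bar at each median; vertical scatter has no meaning. Chloroplast loci run from −2.87 to 0.95, while the 81 nuclear partners run from −0.44 to 0.57.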

How the data were processed

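Per the labels' protocols, RNA was extracted from first leaves with an RNeasy kit and sequenced after library construction by TruSeq RNA Sample Prep V2 (Illumina); this kit selects poly(A) RNA and does not mark strand. The deposited values are FPKM as the authors normalized them, 1 per locus and library. Build TAIR10 and the tools Cufflinks 2.0.2, TopHat2 2.0.8b, TopHat and edgeR 3.12.0 were used, per the submitters' processing notes; the step of each tool was not given in the sources used here. Total depth is unknown; ratios of low values gave relative depths of 1.35 and 1.17 for the hybrid libraries and 1 and 1.13 for Ak-1, relative to Ak-1 replicate 1.

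Values were used as deposited. The test was limma's moderated one (limma 3.58.1 under R 4.3.3, eBayes allowing for a trend), two-sided, on log2(FPKM + 1) of the 15905 loci averaging 1 FPKM or more. Differences are hybrid minus Ak-1, with Benjamini-Hochberg adjustment over all tested loci and calls at an adjusted p under 0.05; 2 residual degrees of freedom were joined by 3.18 prior ones. The log2(FPKM + 1) scale understates differences of low loci. The fit was tested on simulated data with the same normal noise at every locus. Real loci differ in spread, so that check does not bear on single calls here. Alternatives changed the pseudocount, the filter, the scaling, the variance model, the block and the libraries.

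The members and lists were chosen with earlier results of these data known. The rule for named genes took all called members and, of each nuclear list, the gene with the smallest adjusted p; its part by functional class could not be applied, so the annotated members were named in its place, and all other loci given by their values were chosen after those values were seen. The planned sorting by gene symbol could not be made, because the identifiers did not match the reference table. Coordinates and sequences of TAIR10.1 are not used here, since the files are of TAIR10.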

Additional observations from a re-analysis of the deposited data

How the results depend on the processing

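The count of chloroplast loci called higher was 2, and it became 0 with a pseudocount of 0.1, with no filter on low values, with only loci averaging 5 FPKM or more, after quantile normalization, with nuclear loci rescaled to the same total in every library, and with the replicate number as a block. Over all tested loci the count called higher was 257 in the main fit, and from 92 to 311 in those settings. The count of chloroplast loci called lower was 4, and 1 with no filter on low values, when every locus of the file enters the fit. All loci called lower numbered 400 of 15905 in the main fit and 65 of 34133 with no filter. Leaving out 1 library leaves a single library in its group, so counts of calls from these fits are not given. Without Ak-1 replicate 1 or 2 the chloroplast calls were lost, and so were nearly all calls in the whole file. The median log2 difference of the tested chloroplast loci was −0.07; it was 0 with no filter, −0.0073 after median-of-ratios scaling and 0.00095 after quantile normalization, and from −0.14 to 0.020 with 1 library left out. With chloroplast loci rescaled to the same total in every library, 3 were higher and 5 lower. Of all 15905 tested loci, 452 were then higher and 774 lower. The ratio of summed FPKM ranged from 0.929 to 1.05 with 1 library left out. After median-of-ratios scaling, quantile normalization and rescaling of nuclear loci it moved by less than the spread between libraries. With 2 libraries per group, leaving 1 out could hardly move it past that spread, so those fits do not test it. Settings that changed only the pseudocount, filter or model gave no new ratio, and rescaling chloroplast loci to the same total fixed it at 1. The log2 difference of ATCG00750, 0.10, was −0.13 without hybrid replicate 1 and 0.34 without hybrid replicate 2. Under the replicate block the 4 falls were called and the rises were not. The labels do not tie libraries by their numbers. Deviations of same-numbered libraries from their group means correlated at −0.14 over all tested loci and at 0.45 over the chloroplast loci. With 2 libraries per group the other pairing only turns the sign, so these values do not decide whether libraries were paired. A crossed block, added after the data were seen, gave 1 chloroplast locus higher and 4 lower, with 262 higher and 439 lower of all tested loci. The causes of these changes were not tested. Restricting the set to protein-coding loci or to loci outside the inverted repeat was not run, since the identifiers could not be matched to those classes. Precision is limited by 2 libraries per group and by unknown depth.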
